A study of Homo sapiens with 15 samples.

Results

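Small nucleolar RNA (snoRNA) host genes carry snoRNAs in their introns, the short RNAs that guide chemical modification of ribosomal RNA. Many hosts code for proteins, and those described here are long noncoding genes. After splicing, the intron is opened and trimmed by exonucleases to the mature snoRNA, while the spliced host transcript leaves the nucleus, is often read by ribosomes and is then removed by nonsense-mediated decay. Many hosts start with a C followed by a run of C and T, the 5' terminal oligopyrimidine (TOP) start that ribosomal protein mRNAs also carry, and this class is known to follow the growth state of the cell. The 10 hosts described here were ZFAS1, SNHG12, SNHG1, SNHG3, SNHG5, SNHG6, SNHG7, SNHG8, SNHG15 and GAS5, of 58735 genes in all, and all 10 were among the 16175 genes that passed the filter on low values. They are a list of host transcripts selected on the levels of 2 snoRNAs, SNORD12B inside ZFAS1 and SNORD99 inside SNHG12, which were higher in each of 4 knockout clones than in the control clone. Every value of a host or of a snoRNA inside it against the control clone is therefore a description: no p is given for it, and counts past a threshold or counting intervals in that contrast support nothing.

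RNA came from HEK293T cells, a human embryonic kidney line, in which Cas9 and 1 guide RNA, delivered by the lentiCRISPRv2 vector, had disrupted MAGI2, MLPH, C9orf89 or RHBDD2, giving the groups MAGI2-CKO, MLPH-CKO, C9orf89-CKO and RHBDD2-CKO. Where values of all 4 knockout clones are listed without names, they stand in that order. The control group, Non-target, carried the same vector with a guide that has no target and was also grown out by limiting dilution. Each of the 5 groups was 1 clone, sampled as 3 wells, so the 15 libraries hold the spread of culture and library preparation and not that between clones made with the same guide. All 4 comparisons with Non-target share its 3 wells. A library held between 15517856 and 19489918 fragments on genes, with a median of 17666063. Levels are in FPKM, fragment numbers normalised for exon length and sequencing depth, so levels of different genes can be compared per length.

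The disrupted genes were read first. The transcript of C9orf89 (CARD19 in the annotation) stood at 4.32 ± 0.0421 FPKM (SD, n = 3) in its own clone and at 6.56 ± 1.04 FPKM in Non-target, but it was nearly as low, 4.79 ± 0.339 FPKM, in RHBDD2-CKO. RHBDD2 stood at 12.4 ± 1.18 FPKM in its own clone and 33.5 ± 5.50 FPKM in Non-target, and MAGI2-CKO was close to the former with 13.8 ± 2.15 FPKM. MAGI2 was low in all groups (32 to 68 fragments per library), where the control had 0.115 ± 0.0108 FPKM, its own clone 0.0680 ± 0.0195 FPKM and C9orf89-CKO about as little with 0.0718 ± 0.00455 FPKM. MLPH had no fragment in any of the 15 libraries, which allows up to 3 fragments per library, so its level does not bear on the labels. Of the HEK293T markers, VIM stood at 40.1 to 87.9 FPKM and KRT18 at 11.3 to 18.5 FPKM, whereas NEFM ran from 0 to 38.4 FPKM. Of the 7 blood markers, ITGB2 was the most abundant with 0.137 to 0.791 FPKM and was present in every library. MPO had no fragment, and PTPRC, LYZ, CD33, CD14 and SPI1 had at most 1, 4, 5, 8 and 16 in a library. Of the 6 mesenchymal markers, COL1A1 was the most abundant at 2.24 to 5.42 FPKM, COL3A1 reached 176 fragments and LUM 47, and PDGFRB, THY1 and DCN had at most 14, 3 and 2. The part of such cells in the values of the hosts was not tested.

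The replicate 1 libraries stood apart from the others of their group. Compared within groups over genes that had 10 or more fragments in both libraries together, replicate 1 gave a mean chi-square of 14.6 to 24.8 against either other well, where replicates 2 and 3 gave 2.40 to 6.54 against each other. The hosts took part in this to different degrees: SNHG5, SNHG6 and SNHG8 were highest in replicate 1 in 5 of 5 groups, a pattern that 8.69% of all tested genes showed. SNHG8 was 1.60-fold and SNHG6 1.51-fold higher in replicate 1 than in replicates 2 and 3, whereas SNHG15 (1.00-fold), SNHG12 (1.03-fold) and SNHG3 (1.04-fold) hardly differed. What sets replicate 1 apart was not tested, and counts are also given without these 5 libraries.

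Of the snoRNAs inside the hosts, 4 carry the values that follow, and their sequences are shown with the others of their family, so that a reader can see what the counted fragments would have to match. Box C/D snoRNAs guide 2'-O-methylation and are held by the C box, with the letters TGATGA, near the 5' end and the D box, CTGA, near the 3' end, whereas H/ACA snoRNAs guide pseudouridylation and end 3 bases after an ACA triplet. Capitals mark the C box where these letters occur in the first 25 bases, the last CTGA in the last 25 bases, and the ACA triplet. The sequences, in DNA letters, are those of the GENCODE v29 transcripts (GRCh38), read on the transcribed strand. ZFAS1 carries the SNORD12 family, at chr20:49280319-49280409 (SNORD12B), chr20:49278940-49279028 (SNORD12C) and chr20:49280683-49280772 (SNORD12), all on the plus strand.
SNORD12B: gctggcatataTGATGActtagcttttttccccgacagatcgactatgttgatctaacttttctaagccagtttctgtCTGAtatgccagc
SNORD12C: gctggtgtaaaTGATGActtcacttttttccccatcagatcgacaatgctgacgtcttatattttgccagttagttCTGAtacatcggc
SNORD12: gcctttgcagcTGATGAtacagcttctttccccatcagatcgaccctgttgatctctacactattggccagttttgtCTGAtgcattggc
SNHG12 carries SNORD99, at chr1:28578749-28578822 on the minus strand, and SNHG3 carries SNORA73B and SNORA73A, at chr1:28508559-28508762 and chr1:28507366-28507571 on the plus strand.
SNORD99: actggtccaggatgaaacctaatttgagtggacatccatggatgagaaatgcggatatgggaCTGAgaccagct
SNORA73B: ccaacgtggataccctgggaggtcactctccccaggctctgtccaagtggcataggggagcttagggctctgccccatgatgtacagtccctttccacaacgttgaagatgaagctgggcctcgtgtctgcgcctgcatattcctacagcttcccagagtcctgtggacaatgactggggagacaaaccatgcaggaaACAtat
SNORA73A: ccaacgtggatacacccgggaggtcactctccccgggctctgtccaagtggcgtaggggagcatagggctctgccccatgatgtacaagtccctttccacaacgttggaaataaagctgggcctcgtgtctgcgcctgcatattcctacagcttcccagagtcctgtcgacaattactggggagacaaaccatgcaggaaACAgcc

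The 3 members of the SNORD12 family held both boxes in these windows, as did 53.9% of the 388 annotated snoRNAs of 50 to 100 bases. SNORD99 held the D box letters, present in 81.4% of those snoRNAs, but not the letters TGATGA in its first 25 bases. ACA stood 3 bases before the end in 47.6% of the 593 annotated snoRNAs of 101 to 250 bases. SNORA73A and SNORA73B were identical at 192 of 206 aligned bases (93.2%), whereas the members of the SNORD12 family shared 71.0% to 74.2%, so fragments of the SNORA73 pair are the ones most open to being placed on either copy.

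The annotation places 25 snoRNA entries inside the hosts (several at the same position under different identifiers) and none inside GAS5, and only 4 of the 25 received any fragment. Those 4, SNORD12B, SNORD12C, SNORD99 and SNORA73B, are the ones that lie wholly in an intron. Of the other 21, 20 lie wholly in exons of annotated transcripts and 1, SNORD30, lies partly in one, and all had 0 fragments in all 15 libraries. SNORD12 and SNORA73A are among these 21, so the series holds no reading of them at all. Across the genome, 0 of 165 snoRNA or scaRNA genes that lie wholly in exons of other genes had a fragment, against 20 of 60 (33.3%) of those partly in such exons and 220 of 767 (28.7%) of those clear of them. A value of 0 for the 20 snoRNAs wholly in exons is thus no reading of their level.

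SNORD12B, 1 of the 2 snoRNAs that chose the list, had 0, 0 and 0 fragments in the Non-target wells, 4, 5 and 7 in MAGI2-CKO, 4, 3 and 3 in MLPH-CKO, 5, 6 and 4 in C9orf89-CKO and 8, 4 and 2 in RHBDD2-CKO. Every knockout library had at least 2 fragments and no control library had any. SNORD12C had no fragment in Non-target either, with 7, 9 and 2 in MAGI2-CKO, 3, 6 and 3 in MLPH-CKO, 4, 1 and 7 in C9orf89-CKO and 2, 8 and 1 in RHBDD2-CKO. A count of 0 over the Non-target group allows 3 fragments, and relative to depth the summed counts of the clones were 3.02 (MLPH-CKO) to 4.91 (C9orf89-CKO) times that floor for SNORD12B and 3.63 (MLPH-CKO) to 5.15 (MAGI2-CKO) times for SNORD12C, without the counting error of the clones. Counts this low do not order the knockout clones, since the libraries of all 4 overlap.

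SNORD99, the other snoRNA that chose the list, had 0, 0 and 1 fragments in Non-target. It had 18, 13 and 17 in MAGI2-CKO and 9, 15 and 15 in MLPH-CKO, but only 7, 6 and 3 in C9orf89-CKO and 4, 8 and 1 in RHBDD2-CKO, where 1 well was no higher than the highest control well. Summed over wells it had 48, 39, 16 and 13 fragments in the clones and 1 in Non-target, which is within the floor of 3, so no ratio is given.

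SNORA73B, which belongs to the U17 family that takes part in cleavage of the ribosomal RNA precursor, was the best counted of the 4. Non-target had 7, 14 and 17 fragments, against 75, 96 and 78 in MAGI2-CKO, 43, 64 and 69 in MLPH-CKO, 47, 53 and 31 in C9orf89-CKO and 45, 51 and 71 in RHBDD2-CKO. No knockout library overlapped the control, and the depth-scaled ratios for MAGI2-CKO, MLPH-CKO, C9orf89-CKO and RHBDD2-CKO were 5.62 (95% interval 3.98 to 8.13), 4.20 (2.94 to 6.13), 3.39 (2.34 to 4.99) and 4.39 (3.07 to 6.42), with exact binomial intervals that cover counting error only. Other snoRNAs were also counted more often in the clones. Those outside the hosts took 0.00234% to 0.00321% of the fragments of a library in Non-target, and the ranges in the clones were 0.00446% to 0.00546%, 0.00331% to 0.00375%, 0.00280% to 0.00481% and 0.00425% to 0.00474%. Summed by group, their share was 1.91, 1.33, 1.32 and 1.68 times that of Non-target, and C9orf89-CKO overlapped the control. The part of this general difference in the values of the 4 snoRNAs was not tested. SNORA73B lies within the span of RCC1 as well as of SNHG3, and fragments of the mature snoRNA and of unspliced transcripts of either gene cannot be told apart in these counts.

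**Figure D1:**
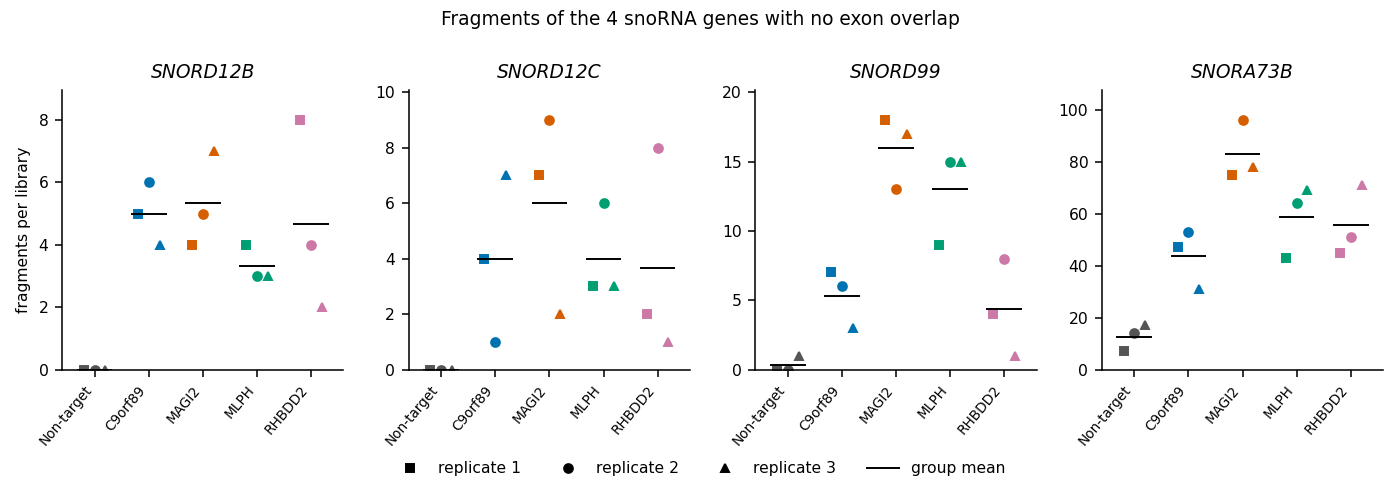
Fragments per library (vertical axis, from 0) of SNORD12B, SNORD12C, SNORD99 and SNORA73B in the 5 groups (horizontal axis), with a marker for each replicate and a line at the group mean. Non-target lies at 0 to 1 fragment in the 3 C/D snoRNAs and at 7 to 17 in SNORA73B, where the knockout libraries reach 31 to 96.

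The hosts themselves were far better counted than their snoRNAs, with 164 to 4457 fragments per library. Over the 15 libraries, mean levels ran from 65.4 FPKM for SNHG5 and 38.6 FPKM for GAS5 down to 6.30 FPKM for ZFAS1 and 6.02 FPKM for SNHG12. SNHG5 lay above 96.1% of the tested genes by mean level, and SNHG12 above 58.0%. Both hosts whose snoRNAs chose the list were thus the least abundant of the 10. MAGI2-CKO had the highest mean in 8 of the 10 hosts and Non-target the lowest in 5. No share of all tested genes stands beside these counts, so nothing is read from them. The group with the highest mean exceeded that with the lowest by between 1.24-fold (ZFAS1) and 3.60-fold (SNHG3). In bulk RNA a lower level cannot be told apart as fewer expressing cells or less RNA per cell.

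**Figure D2:**
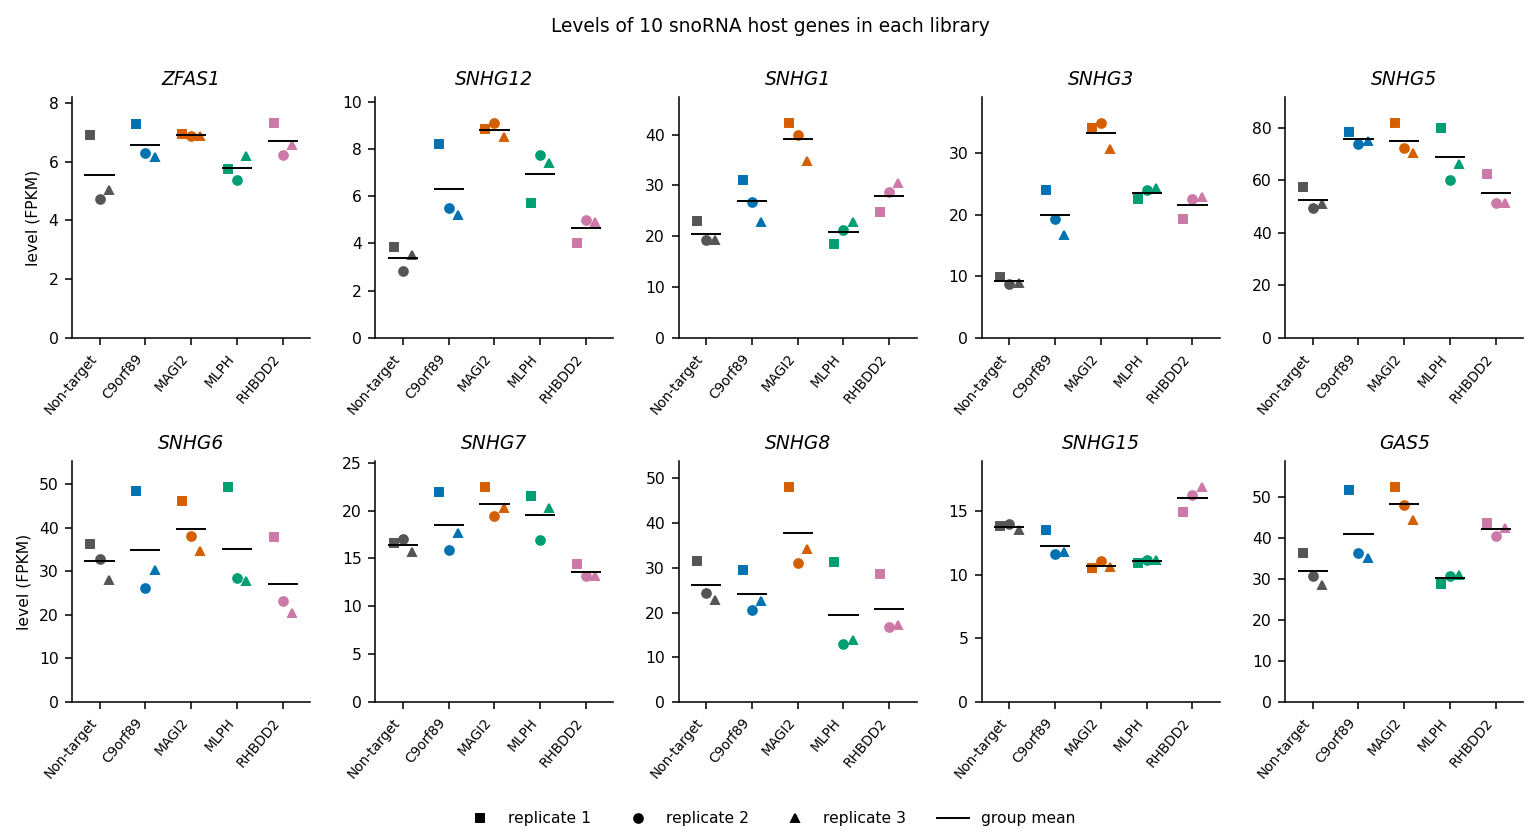
Level in FPKM (vertical axis, from 0) of the 10 hosts in the 5 groups (horizontal axis), with a marker for each of the 3 replicates and a line at the group mean. SNHG3 is at 8.82 to 9.83 FPKM in Non-target and at 16.7 to 34.9 FPKM in the knockout libraries, ZFAS1 overlaps between all groups except MAGI2-CKO with MLPH-CKO and RHBDD2-CKO with MLPH-CKO, and SNHG6 and SNHG8 are highest in replicate 1 of every group.

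Against Non-target, 6, 3, 4 and 4 hosts passed the threshold upward, where 17.0%, 14.5%, 12.9% and 17.4% of all tested genes did so. Downward it was 1, 1, 0 and 0 hosts, where 19.1%, 15.5%, 13.1% and 16.7% of all tested genes did so. The threshold was an adjusted p under 0.05 in a limma fit of all 5 groups on log2(FPKM + 0.1). These counts come from the contrast by which the list was selected and nothing is read from them. The median log2 fold change over the 10 hosts was 0.51 in MAGI2-CKO, 0.07 in MLPH-CKO, 0.30 in C9orf89-CKO and 0.25 in RHBDD2-CKO, with medians over all tested genes within 0.01 of 0. Without replicate 1 of every group, 9, 6, 7 and 9 hosts passed the threshold in either direction, against 7, 4, 4 and 4 with all libraries. The share of all genes that passed in that smaller fit was 41.5%, 38.1%, 33.5% and 43.0%.

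ZFAS1 (ENSG00000177410, chr20:49278178-49295738, plus strand, GRCh38), antisense to the start of ZNFX1 and the host of SNORD12B and SNORD12C, differed the least of the 10 hosts between group means. It stood at 6.92, 4.72 and 5.03 FPKM in Non-target, 6.94, 6.87 and 6.88 in MAGI2-CKO, 5.76, 5.37 and 6.18 in MLPH-CKO, 7.29, 6.29 and 6.15 in C9orf89-CKO and 7.31, 6.24 and 6.58 in RHBDD2-CKO. The wells of each knockout clone overlapped those of the control, whose replicate 1 well lay among the knockout wells. The log2 fold changes were 0.33 ± 0.12 (SE), 0.07 ± 0.12, 0.26 ± 0.12 and 0.28 ± 0.12. Of its exon bases, 46.9% are shared with exons of other genes, 249 of them with ZNFX1 on the other strand, and the libraries were taken as unstranded.

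SNHG12 (ENSG00000197989, chr1:28578538-28583132, minus strand), the host of SNORD99, had its highest group mean in MAGI2-CKO and its lowest in Non-target. It stood at 3.84, 2.85 and 3.53 FPKM in Non-target, 8.83, 9.10 and 8.49 in MAGI2-CKO, 5.73, 7.74 and 7.39 in MLPH-CKO, 8.19, 5.51 and 5.22 in C9orf89-CKO and 4.01, 4.997 and 4.93 in RHBDD2-CKO. All knockout wells lay above all control wells, by the least in RHBDD2-CKO, where 4.01 stood beside 3.84. The log2 fold changes were 1.36 ± 0.17, 1.01 ± 0.17, 0.85 ± 0.17 and 0.44 ± 0.17.

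SNHG3 (ENSG00000242125, chr1:28505980-28510892, plus strand), the host of the SNORA73 pair, differed the most of the 10. It stood at 9.83, 8.82 and 8.99 FPKM in Non-target, 34.0, 34.9 and 30.6 in MAGI2-CKO, 22.5, 24.0 and 24.3 in MLPH-CKO, 24.0, 19.3 and 16.7 in C9orf89-CKO and 19.2, 22.5 and 22.9 in RHBDD2-CKO. The lowest knockout well was well above the highest control well. The log2 fold changes were 1.84 ± 0.11, 1.35 ± 0.11, 1.10 ± 0.11 and 1.21 ± 0.11. MAGI2-CKO also had the most SNORA73B summed over wells. Its SNORA73B wells (18.9, 24.3 and 19.6 FPKM) overlapped those of RHBDD2-CKO (12.1, 14.8 and 21.4 FPKM).

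Among the hosts of the larger C/D clusters, SNHG1 (ENSG00000255717, chr11:62851988-62855914, minus strand), which carries SNORD22, SNORD25, SNORD26, SNORD27 and SNORD28 among others, was highest in MAGI2-CKO. Its levels were 23.0, 19.3 and 19.3 FPKM in Non-target, 42.3, 39.9 and 34.9 in MAGI2-CKO, 18.6, 21.2 and 22.8 in MLPH-CKO, 31.1, 26.8 and 22.9 in C9orf89-CKO and 24.7, 28.6 and 30.5 in RHBDD2-CKO. MAGI2-CKO lay clear of every other group, whereas MLPH-CKO and C9orf89-CKO overlapped the control. The log2 fold changes against Non-target were 0.92 ± 0.13, 0.02 ± 0.13, 0.38 ± 0.13 and 0.44 ± 0.13. GAS5 (ENSG00000234741, chr1:173863900-173868882, minus strand), named for its build-up in growth-arrested cells, had the same 3 clones on top, with 36.3, 30.6 and 28.6 FPKM in Non-target, 52.4, 48.0 and 44.3 in MAGI2-CKO, 28.8, 30.6 and 30.8 in MLPH-CKO, 51.6, 36.2 and 35.0 in C9orf89-CKO and 43.5, 40.5 and 42.4 in RHBDD2-CKO. C9orf89-CKO and MLPH-CKO overlapped the control, and the replicate 1 well of C9orf89-CKO stood apart from its other 2.

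SNHG5 (ENSG00000203875, chr6:85660950-85678748, minus strand), host of the SNORD50 pair and the most abundant of the 10, was at 57.5, 49.4 and 51.0 FPKM in Non-target, 81.8, 72.4 and 70.6 in MAGI2-CKO, 80.0, 60.3 and 66.0 in MLPH-CKO, 78.5, 73.6 and 74.8 in C9orf89-CKO and 62.3, 51.5 and 51.4 in RHBDD2-CKO. RHBDD2-CKO alone among the clones overlapped the control, with a log2 fold change of 0.06 ± 0.11. SNHG7 (ENSG00000233016, chr9:136721366-136728184, minus strand), host of SNORA17A and SNORA17B, was at 16.6, 17.01 and 15.6 FPKM in Non-target, 22.5, 19.4 and 20.3 in MAGI2-CKO, 21.5, 16.9 and 20.2 in MLPH-CKO, 21.9, 15.9 and 17.6 in C9orf89-CKO and 14.4, 13.2 and 13.2 in RHBDD2-CKO. Its RHBDD2-CKO wells lay below all wells of the other groups, the control included.

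SNHG15 (ENSG00000232956, chr7:44983023-44986961, minus strand), host of SNORA9, ran in another order than the rest. It stood at 13.9, 13.9 and 13.5 FPKM in Non-target, 10.51, 11.1 and 10.6 in MAGI2-CKO, 10.9, 11.2 and 11.2 in MLPH-CKO, 13.5, 11.6 and 11.7 in C9orf89-CKO and 14.9, 16.2 and 16.9 in RHBDD2-CKO. RHBDD2-CKO was the highest group and MAGI2-CKO the lowest. The log2 fold changes against Non-target were 0.22 ± 0.06 in RHBDD2-CKO and -0.36 ± 0.06 in MAGI2-CKO, and this standard error was the smallest of the 10.

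SNHG8 (ENSG00000269893, chr4:118278709-118279823, plus strand), host of SNORA24, and SNHG6 (ENSG00000245910, chr8:66921684-66926398, minus strand), host of SNORD87, were the least settled because of replicate 1. SNHG8 stood at 31.5, 24.4 and 22.8 FPKM in Non-target, 48.1, 31.1 and 34.2 in MAGI2-CKO, 31.4, 12.9 and 13.8 in MLPH-CKO, 29.5, 20.5 and 22.6 in C9orf89-CKO and 28.6, 16.8 and 17.3 in RHBDD2-CKO. SNHG6 stood at 36.4, 32.9 and 28.0 FPKM in Non-target, 46.1, 38.1 and 34.7 in MAGI2-CKO, 49.4, 28.4 and 27.7 in MLPH-CKO, 48.5, 26.2 and 30.4 in C9orf89-CKO and 37.97, 23.1 and 20.6 in RHBDD2-CKO. Every knockout clone overlapped the control in both genes, and the standard errors of 0.32 and 0.28 were the largest among the hosts.

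The genes around each host were read beside it. Around SNHG12 and SNHG3, which lie side by side on chromosome 1, the median log2 fold change of the 100 nearest tested genes was 0.52 for both in MAGI2-CKO, 0.40 for both in MLPH-CKO, 0.49 and 0.50 in C9orf89-CKO, and 0.45 for both in RHBDD2-CKO. In RHBDD2-CKO, SNHG12 (0.44) did not stand above its surroundings, whereas in MAGI2-CKO it was 0.84 above them. SNHG3 exceeded its surroundings by 1.32, 0.95, 0.60 and 0.76. Over the 360 other tested genes that start before 30 Mb of chromosome 1, a limit set after the values were seen, the median was 0.51, 0.45, 0.47 and 0.47, and over the 1276 from there on it was within 0.05 of 0 in each clone. The part of this regional difference in the values of SNHG12 and SNHG3 was not tested.

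**Figure D3:**
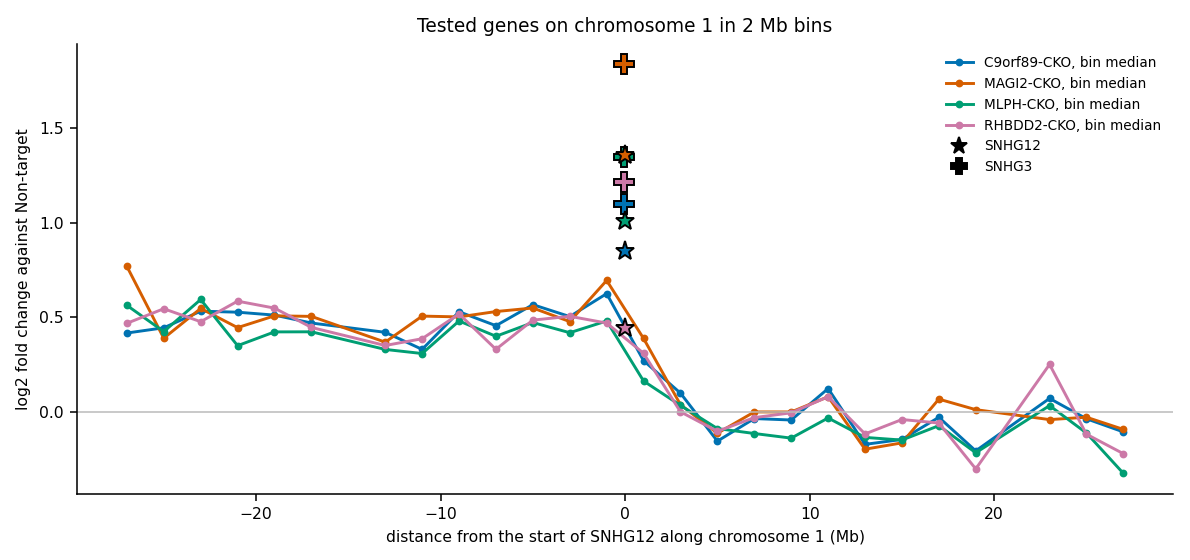
Median log2 fold change against Non-target (vertical axis) of the tested genes in 2 Mb bins with at least 5 genes, by distance in Mb from the start of SNHG12 along chromosome 1 (horizontal axis), 1 line per knockout clone, with SNHG12 (stars) and SNHG3 (crosses). The bins left of the hosts lie between 0.31 and 0.77, and those from 3 Mb to the right on between -0.33 and 0.25, and SNHG3 lies above its bins in every clone.

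Elsewhere the surroundings had medians between -0.17 and 0.17. The exceptions were SNHG15 in MAGI2-CKO, where the 100 nearest genes had a median of -0.64 and the host -0.36, and SNHG8 in MLPH-CKO, where they had -0.39 and the host -0.55. For SNHG1 in MAGI2-CKO the host was at 0.92 and its surroundings at 0.06, and 88 of those 100 genes lay below it. ZFAS1 in MAGI2-CKO was at 0.33 with surroundings at -0.06, and GAS5 in the same clone at 0.60 with surroundings at -0.06.

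**Figure D4:**
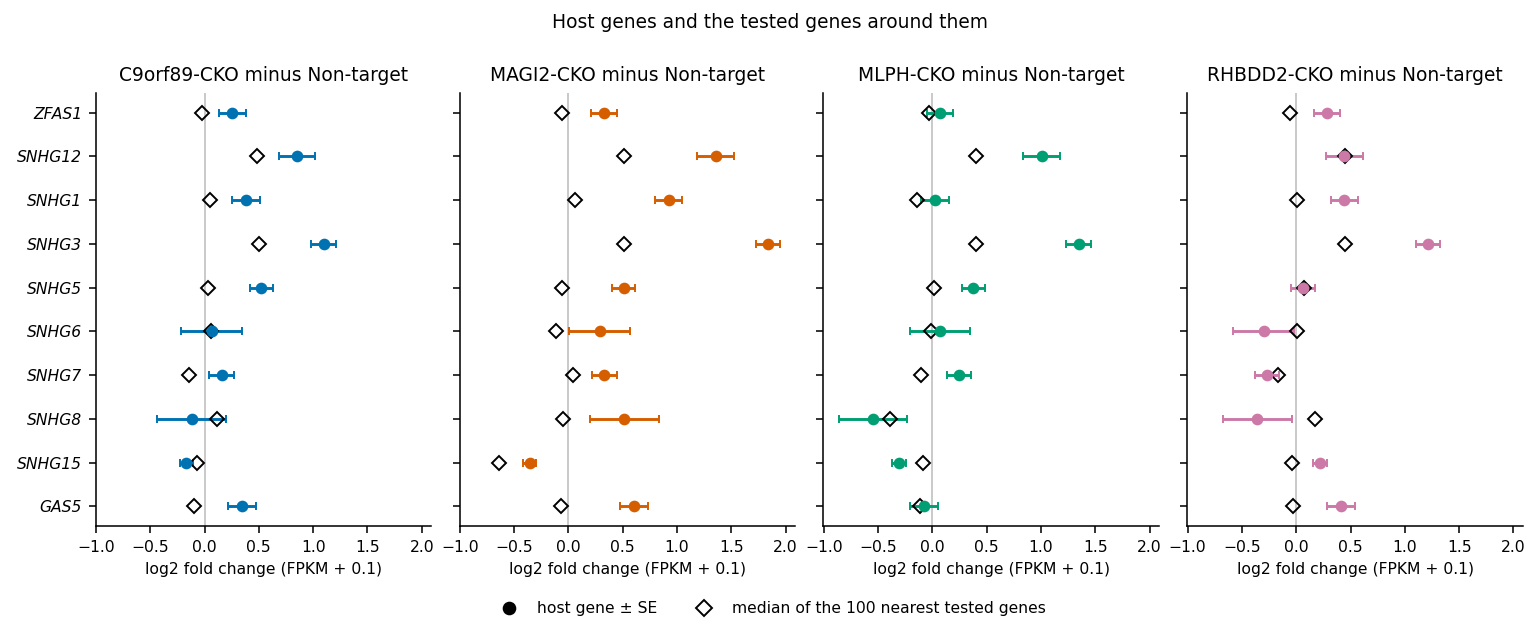
Log2 fold change against Non-target (horizontal axis, on FPKM + 0.1) of each host (rows; circles with bars of 1 SE) and the median of the 100 nearest tested genes on its chromosome (open diamonds), 1 panel per knockout clone. Diamonds lie between -0.17 and 0.17 except for SNHG12 and SNHG3 (0.40 to 0.52), SNHG15 in MAGI2-CKO (-0.64) and SNHG8 in MLPH-CKO (-0.39).

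The clones were then compared with each other, a contrast that the choice of the list did not use. Of 60 comparisons (10 hosts in 6 pairs of clones), 25 passed limma's test at an adjusted p under 0.05 with Benjamini-Hochberg adjustment over all genes, and 8 of the 10 hosts passed in at least 1 pair, where 60.2% of all genes did. ZFAS1 and SNHG6 passed in none, although without replicate 1 of every group SNHG6 passed in 5 pairs and ZFAS1 in 1. ZFAS1 also passed for MLPH-CKO minus MAGI2-CKO without Non-target replicate 1 (limma adjusted p = 0.0448), and SNHG6 for RHBDD2-CKO minus MAGI2-CKO without RHBDD2-CKO replicate 1 (limma adjusted p = 0.0292). In either direction, 4 hosts passed between MAGI2-CKO and C9orf89-CKO, where 22.5% of all genes did, 1 between MLPH-CKO and C9orf89-CKO (14.2% of all genes), and 3 between RHBDD2-CKO and C9orf89-CKO (29.3%). Between MLPH-CKO and MAGI2-CKO it was 4 hosts (21.2% of all genes), between RHBDD2-CKO and MAGI2-CKO 7 hosts (41.6%), and between RHBDD2-CKO and MLPH-CKO 6 hosts (37.0%). With 10 hosts, the shares were above those of all genes in the 3 pairs with MAGI2-CKO and in RHBDD2-CKO against MLPH-CKO, and near them in the other 2. Between MAGI2-CKO and C9orf89-CKO this depended on the fit. With only the 6 libraries of that pair, 2 hosts passed, near the 17.2% of all genes. The count was also 2 without any of 9 single libraries. Without replicate 1 of every group it was 6, where 32.5% of all genes passed. The median difference over the 10 hosts was -0.53 for RHBDD2-CKO minus MAGI2-CKO and -0.30 for MLPH-CKO minus MAGI2-CKO, beside -0.01 over all genes in both.

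**Figure D5:**
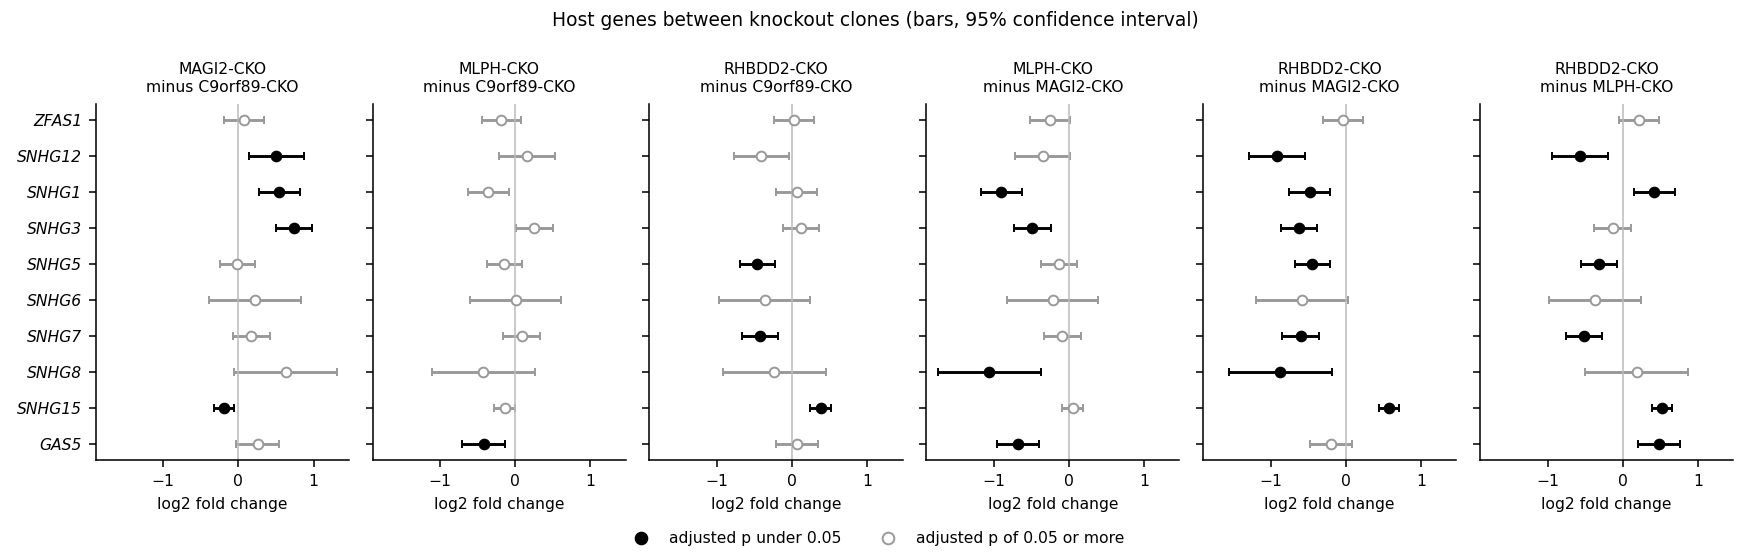
Log2 difference (horizontal axis) of each host (rows) in the 6 pairs of knockout clones (panels), with bars for the 95% confidence interval, filled where limma's adjusted p was under 0.05. SNHG1 and SNHG3 are filled in all 3 panels that hold MAGI2-CKO, SNHG15 in all 3 that hold RHBDD2-CKO, and ZFAS1 and SNHG6 in none.

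MAGI2-CKO was higher than each of the other clones in SNHG3 and SNHG1. SNHG3 exceeded C9orf89-CKO by a log2 difference of 0.74 ± 0.11 (SE; limma adjusted p = 0.000442), and was lower by 0.49 ± 0.11 in MLPH-CKO (adjusted p = 0.00760, limma) and by 0.62 ± 0.11 in RHBDD2-CKO (adjusted p = 0.000686, limma) than in MAGI2-CKO. SNHG1 exceeded C9orf89-CKO by 0.54 ± 0.13 (adjusted p = 0.00767, limma) and fell by 0.90 ± 0.13 from MAGI2-CKO to MLPH-CKO (adjusted p = 0.000236, limma). The 100 genes nearest to SNHG3 had a median of 0.07 for MAGI2-CKO minus C9orf89-CKO and -0.12 for MLPH-CKO minus MAGI2-CKO, and those nearest to SNHG1 had 0.08 and -0.25. SNHG12 was lower in RHBDD2-CKO than in MAGI2-CKO by 0.91 ± 0.17 (adjusted p = 0.000811, limma), with the 100 nearest genes at -0.03.

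RHBDD2-CKO differed in both directions. SNHG15 was higher there than in C9orf89-CKO by 0.38 ± 0.06 (adjusted p = 0.000604, limma), than in MAGI2-CKO by 0.57 ± 0.06 (adjusted p = 1.37e-05) and than in MLPH-CKO by 0.52 ± 0.06 (adjusted p = 4.04e-05). The 100 genes nearest to SNHG15 had a median of 0.55 for RHBDD2-CKO minus MAGI2-CKO, as large as the host's own difference, but 0.04 and 0.03 in the other 2 pairs. SNHG7 was lower in RHBDD2-CKO than in each of the other clones, by 0.43 ± 0.11 against C9orf89-CKO (adjusted p = 0.0118, limma), 0.60 ± 0.11 against MAGI2-CKO (adjusted p = 0.000840) and 0.52 ± 0.11 against MLPH-CKO (adjusted p = 0.00296). Not all of these SNHG7 calls held in every alternative run. SNHG5 was lower there as well, by 0.46 ± 0.11 against C9orf89-CKO (adjusted p = 0.00612, limma) and 0.45 ± 0.11 against MAGI2-CKO (adjusted p = 0.00506), and by 0.32 ± 0.11 against MLPH-CKO (adjusted p = 0.0363), where it reached 0.149 without MLPH-CKO replicate 1.

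GAS5 was lowest in MLPH-CKO, below MAGI2-CKO by 0.68 ± 0.13 (adjusted p = 0.00237, limma) and below RHBDD2-CKO by 0.48 ± 0.13 (adjusted p = 0.0104). Against C9orf89-CKO its difference of -0.42 passed at an adjusted p of 0.0470 by limma, which reached 0.158 with only the libraries of those 2 groups. For ZFAS1 the widest difference between clones was -0.26 for MLPH-CKO minus MAGI2-CKO, with a 95% interval from -0.52 to 0.01 (adjusted p = 0.169, limma). For SNHG6 the interval of RHBDD2-CKO minus MAGI2-CKO ran from -1.19 to 0.02, although this pair passed with the replicate number as a block (adjusted p = 0.00297, limma). SNHG8 passed in 2 pairs, with -1.06 for MLPH-CKO minus MAGI2-CKO (adjusted p = 0.0300, limma) and -0.87 for RHBDD2-CKO minus MAGI2-CKO (adjusted p = 0.0415), and these reached 0.122 without MLPH-CKO replicate 2 and 0.142 without MAGI2-CKO replicate 1. Without replicate 1 of every group, SNHG8 passed in all 6 pairs. Between MAGI2-CKO and C9orf89-CKO, the calls of SNHG12 (0.50, adjusted p = 0.0495, limma) and SNHG15 (-0.19, adjusted p = 0.0477) were lost in 15 and 19 of the 25 alternatives run. Of the 25 calls, 16 held in all 25 alternatives run, among them all those of SNHG3, all those of SNHG7 but 1, and all those of SNHG15 but 1. Without replicate 1 of every group, 42 of the 60 comparisons passed (70.0%), where 34.0% of the comparisons over all genes did. With all libraries these shares were 41.7% and 27.6%. By pair, the hosts that passed without replicate 1 numbered 6 between MAGI2-CKO and C9orf89-CKO (32.5% of all genes), 5 between MLPH-CKO and C9orf89-CKO (20.6%), 7 between RHBDD2-CKO and C9orf89-CKO (36.0%), 7 between MLPH-CKO and MAGI2-CKO (26.9%), 9 between RHBDD2-CKO and MAGI2-CKO (47.2%) and 8 between RHBDD2-CKO and MLPH-CKO (40.7%).

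The annotated starts of the hosts were read for the TOP feature, a property that the values did not choose. RefSeq starts (GRCh38.p14) were matched for 8 of the 10 hosts. Of these, 4 began with a C followed by at least 3 further C or T, making a run of at least 4, as did 5.45% of all 35116 starts. The first 30 transcribed bases are shown for these 4 and for SNHG3, with the run in capitals.
SNHG12: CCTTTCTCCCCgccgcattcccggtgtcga
ZFAS1: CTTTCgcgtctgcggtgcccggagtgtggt
SNHG5: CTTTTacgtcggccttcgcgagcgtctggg
SNHG7: CTCTgcgtgcgccggaggctgccgtggcgg
SNHG3: gattctctaactgcgcatgcttctgcgcac
The length of 4 was set after the starts were seen, and a start 1 base away would give another count. SNHG12 had the longest run, 11 bases. SNHG3, the host with the widest difference between groups, and GAS5 had none at the annotated start read here. SNHG8 and SNHG1 had runs of 1 and 3 bases. Whether transcripts of these hosts start elsewhere was not tested. SNHG12 and ZFAS1, both with such a start, differed 2.59-fold and 1.24-fold between their highest and lowest group means.

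Genes that overlap a host or start beside it were tested against Non-target. RCC1, the exchange factor of the GTPase Ran, starts 37 bases before SNHG3 on the same strand and shares 242 exon bases with it. Its mean was 73.0 FPKM in the control (SD 3.32, n = 3), 101.1 ± 4.70 in MAGI2-CKO, 85.1 ± 6.68 in MLPH-CKO, 87.6 ± 0.582 in C9orf89-CKO and 85.7 ± 4.08 in RHBDD2-CKO. It was higher in each clone, by 0.47 (limma adjusted p = 0.000124), 0.22 (0.0239), 0.26 (0.0104) and 0.23 (0.0161), which is below the median of the 100 nearest genes and below SNHG3 in all 4. MAGI2-CKO had the highest mean for both RCC1 and SNHG3, which share these exon bases. How far the values of these genes and of SNORA73B are separate readings was not tested.

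SLC3A2, the heavy chain of several amino acid transporters, starts 188 bases from SNHG1 on the other strand and shares no exon base with it. It was lower in C9orf89-CKO by 0.44 ± 0.08 (adjusted p = 0.00200, limma), in MLPH-CKO by 0.35 ± 0.08 (0.00672) and in RHBDD2-CKO by 0.26 ± 0.08 (0.0298), with no difference past the threshold in MAGI2-CKO (-0.07, adjusted p = 0.571). In C9orf89-CKO and RHBDD2-CKO, SNHG1 had log2 fold changes of 0.38 and 0.44, the opposite sign to the gene beside it. ZNFX1, a helicase-related antiviral factor that starts across from ZFAS1, was higher in MAGI2-CKO by 0.41 ± 0.11 (adjusted p = 0.0109, limma) and in RHBDD2-CKO by 0.35 ± 0.11 (0.0278). In RHBDD2-CKO, RCC1, SLC3A2 and ZNFX1 thus passed, where 17.4% of all tested genes were higher and 16.7% lower. So few genes were tested beside the hosts that nothing is read from this count. It ran from 1 to 5 in the alternatives run. TRNAU1AP beside SNHG12 did not pass in any clone (log2 fold changes from -0.17 to 0.11), although it lies in the same stretch of chromosome 1. FAM69B across from SNHG7 (adjusted p of 0.191 or more by limma) and ZBTB37 across from GAS5 (0.0821 or more) did not pass either. MCMDC2, which overlaps SNHG6, was below the filter on low values.

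GAS5-AS1, which shares 42 exon bases with GAS5 on the other strand, had 4 to 7 fragments per library in Non-target and 10 to 20 in the wells of every clone but MAGI2-CKO, where it had 4 to 24. It passed in C9orf89-CKO (1.46 ± 0.47, limma adjusted p = 0.0357) and MLPH-CKO (1.33 ± 0.47, adjusted p = 0.0468), while GAS5 itself was level with the control in MLPH-CKO (-0.07). With libraries taken as unstranded, fragments in the shared bases cannot be assigned to either gene.

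Other genes of snoRNA production were counted against Non-target from lists of hosts, proteins and decay factors. The shares over all genes to read these counts against are the 17.0%, 14.5%, 12.9% and 17.4% higher and the 19.1%, 15.5%, 13.1% and 16.7% lower given above. Of 15 tested other long noncoding hosts, 4, 2, 1 and 1 were higher and 0, 0, 2 and 0 lower. Their median log2 fold change was 0.25, 0.00, -0.16 and 0.00. SNHG4, a host on chromosome 5, was the only member higher in all 4, at 5.53 ± 1.18 FPKM in Non-target and 8.62 to 9.25 FPKM in the clones, with limma adjusted p from 0.00304 to 0.00654, and the 100 genes around it had medians from -0.04 to 0.02.

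Of 62 protein-coding hosts, 8, 6, 6 and 6 were higher and 10, 9, 7 and 11 lower, with medians from -0.13 to 0.01. RPL32, a protein of the large ribosomal subunit, was lower in all 4, at 301 ± 12.6 FPKM in Non-target and 213 to 241 FPKM in the clones (limma adjusted p from 0.00446 to 0.0419), as was EIF5, which activates the GTPase of the initiation complex (-0.23 to -0.38, limma adjusted p from 0.000639 to 0.0137). RCC1 was the only one higher in all 4. The shares of this list were 9.68% to 12.9% higher and 11.3% to 17.7% lower.

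Of 20 snoRNP core and assembly proteins, 2, 2, 1 and 1 were higher and 4, 5, 4 and 5 lower, with medians of -0.02, -0.14, -0.13 and -0.11. SHQ1, the chaperone that assembles H/ACA particles, was lower in all 4, with log2 fold changes from -0.22 to -0.49 (limma adjusted p from 1.05e-05 to 0.00464) and 10.4 ± 0.417 FPKM in Non-target and 7.36 ± 0.247 FPKM in MAGI2-CKO. NOP56 and NOP58, core proteins of C/D particles, and DKC1, the pseudouridine synthase of H/ACA particles, stand both in this list and among the protein-coding hosts.

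Of 22 nonsense-mediated decay factors, 3, 1, 2 and 4 were higher and 3, 4, 3 and 4 lower, with medians within 0.04 of 0. PNRC2, which links the decay factor UPF1 to decapping, was higher in all 4, at 27.0 ± 2.17 FPKM in Non-target and 40.0 to 45.9 FPKM in the clones (limma adjusted p from 0.000111 to 0.00120). Of 16 other TOP mRNAs, 0, 0, 1 and 0 were higher and 0, 2, 0 and 3 lower, with a median of -0.19 in RHBDD2-CKO and within 0.07 of 0 in the others.

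Of 17 genes of the RNA exosome and of intron lariat processing, 4, 3, 3 and 2 were higher and 3, 3, 2 and 7 lower. The 7 lower in RHBDD2-CKO were 41.2% of the list, where 16.7% of all genes were lower. EXOSC10, the nuclear exonuclease of the exosome that trims snoRNA ends, was higher in all 4 by 0.63 to 0.80 (limma adjusted p from 2.72e-06 to 2.36e-05), while the core subunits EXOSC7 and EXOSC3 were lower in all 4. Of 149 distinct list genes tested, 4 (2.68%) were higher and 5 (3.36%) lower in all 4 clones, beside 3.39% and 3.26% of all tested genes, and the 4 comparisons share their control wells. Of the 4 list genes higher in all 4 clones, EXOSC10, PNRC2 and RCC1 lie on chromosome 1 between 11066618 and 28539300, where the 100 genes around each had medians of 0.40 to 0.55. Of the 5 lower in all 4, EXOSC7, RPL32 and SHQ1 lie on chromosome 3, with medians of the 100 nearest genes between -0.41 and -0.18. The part of these regions in the values was not tested.

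Levels over the 15 libraries were compared with those of ZFAS1 and SNHG12 by the root mean square difference of centred log2 levels. This covered 12533 genes with a mean of at least 1 FPKM. The levels were not scaled, so the difference depends on how widely a gene varies as well as on its pattern. The tested genes with the smallest difference from ZFAS1 were TRIM44 (0.0782), KDM5A (0.0866) and HIPK2 (0.0889). For SNHG12 they were VAMP1 (0.185), ANO8 (0.187) and PABPC1L (0.188). None of these is a listed host. Among the other 9 hosts, GAS5 was the nearest to ZFAS1 at rank 659, and SNHG3 the nearest to SNHG12 at rank 63. SNHG12 and ZFAS1, the hosts whose snoRNAs were both higher in every clone, differed by 0.445, which put ZFAS1 at rank 1627 from SNHG12 and SNHG12 at rank 9999 from ZFAS1.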

How the data were processed

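RNA of HEK293T clones (RNeasy with DNase I, NEBNext Ultra RNA kit, NovaSeq) was sequenced, with the kit's libraries taken as unstranded. The submitters' processing notes name HISAT2 2.0.5, featureCounts 1.5.0-p3 and DESeq2, without a build. The authors deposited 1 table per library without a unit. The deposited values were read as FPKM, since multiplying by the merged exon lengths of GENCODE v29 (GRCh38) gave whole fragments, within 0.02 of 1 fragment, for 100% of low values. These fragments gave depths, floors of 3 fragments and 95% intervals, which cover counting error only. All 58735 genes matched GENCODE v29.

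Genes with at least 0.5 FPKM in 3 libraries were tested by limma 3.58.1 (R 4.3.3) with a trend on log2(FPKM + 0.1), 5 groups in 1 model, Benjamini-Hochberg per contrast, threshold 0.05. Fold changes of low genes are understated on this scale. On simulated data for C9orf89-CKO against Non-target, 142 of 200 genes changed by log2 1 were recovered among 16175, with 10 unchanged genes called. The simulated noise was independent between genes and libraries and held no shift of replicate 1. How the fit does under such a shift was not simulated. Python 3.11.15 did the rest.

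Members and lists were chosen with earlier results of these data known. Host lists kept genes with an annotated snoRNA inside. Named are all hosts, their snoRNAs and neighbours, the disrupted genes, and per list at most 4 genes past the threshold one way in all clones. A marker and a neighbour that these rules name are not reported here. The alternatives were other pseudocounts, filters, scaling, quantile normalization, pairwise fits, no trend, a replicate block, each library left out, voom on fragments and, chosen after seeing the data, no replicate 1.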

Additional observations from a re-analysis of the deposited data

How the results depend on the processing

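No host changed direction past the threshold in any of the 25 alternatives, 24 of them planned. The counts moved by more than 1.5 times as follows, and the cause was not tested.

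Without replicate 1 of every group (chosen after seeing the data), 7 hosts passed against Non-target in C9orf89-CKO and 9 in RHBDD2-CKO (4 each with all libraries). Between clones, 5 passed for MLPH-CKO and C9orf89-CKO (1 before), 7 for RHBDD2-CKO and C9orf89-CKO (3 before) and 7 for MLPH-CKO and MAGI2-CKO (4 before). Of the pathway lists, 72 genes passed in MLPH-CKO, 88 in RHBDD2-CKO and 69 in C9orf89-CKO (37, 44 and 32 before). In that fit 38.1%, 43.0% and 33.5% of all genes passed. Of the genes beside the hosts, 4 passed in MAGI2-CKO and 5 in RHBDD2-CKO (2 and 3 before), where 41.5% and 43.0% of all genes passed.

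Between MAGI2-CKO and C9orf89-CKO, 4 hosts passed in the fit reported. With no filter, without the trend or with only the 6 libraries of the pair it was 2. In the fit of those 6 libraries, 17.2% of all genes passed. Between MLPH-CKO and C9orf89-CKO the 1 call fell to 0 under these alternatives and under quantile normalization. With only 6 libraries, 7.88% of all genes passed in that pair. With only 6 libraries, 22 list genes passed in MLPH-CKO, where 22.1% of all genes did. With no filter or with quantile normalization, 1 gene beside the hosts passed in RHBDD2-CKO (3 in the fit reported). No share of all genes is given for the fits with no filter, without the trend or with quantile normalization.

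Leaving out 1 library at a time, the hosts past the threshold ranged from 1 (without Non-target replicate 3 or RHBDD2-CKO replicate 3) to 6 (without Non-target replicate 1) in RHBDD2-CKO, with 2 without Non-target replicate 2. Between MAGI2-CKO and C9orf89-CKO they ranged from 2, reached without any of 9 single libraries, to 5, and between MLPH-CKO and C9orf89-CKO from 0, reached without any of 11, to 2 (without C9orf89-CKO replicate 3). List genes ranged from 27 (without Non-target replicate 3) to 42 in MAGI2-CKO. Genes beside the hosts ranged from 1 (without MLPH-CKO replicate 1) to 3 in MLPH-CKO, and from 1 (without Non-target replicate 2, RHBDD2-CKO replicate 1 or RHBDD2-CKO replicate 3) to 4 in RHBDD2-CKO. These ranges stand without the shares of all genes that passed in the same fits. A move of the named genes cannot be told here from one of all genes.

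Wells of different groups share only a replicate number: of 30 pairs with the same number, 12 had deviations from the group means that correlated above 0.1, and 12 of 15 libraries correlated best with their own number. Fitted with this number as a block, 61 list genes passed in MLPH-CKO, 79 in RHBDD2-CKO and 58 in C9orf89-CKO, where 38.9%, 43.5% and 35.4% of all genes passed, and the host counts stayed within 1.5 times. Between clones SNHG6, with no call in the fit reported, passed in 3 pairs under the block (limma adjusted p from 0.00297 to 0.0452), SNHG8 passed also for MAGI2-CKO minus C9orf89-CKO (0.63, adjusted p = 0.00600), and SNHG12 lost its call there (adjusted p = 0.0531). The intronic snoRNAs rest on 0 to 96 fragments per library and the hosts on 164 to 4457. How far depth limits either was not tested.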
